A study of Arabidopsis thaliana with 12 samples.

Results

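AT5G39980 and AT1G79080 are nuclear genes of Arabidopsis thaliana that encode pentatricopeptide repeat (PPR) proteins. They are the 2 genes described here, of 689 genes that a probe for a single gene covered on the array. They were taken from among the single-gene probes with the widest differences between psan and WT on these same arrays, AT5G39980 as one higher in psan and AT1G79080 as one lower. Their difference between the groups is therefore given as a description, without a test.

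The series held 12 expression arrays of total RNA, 6 of the psan mutant and 6 of wild type (WT), both in ecotype Columbia 0. The psan mutant lacks PSI-N, a small lumenal protein of photosystem I and the product of the nuclear gene PSAN (AT5G64040). The labels name no tissue, age, growth condition or kind of lesion, and none of the 12 leaf, root or seed marker genes had a single-gene probe. The origin of the numbered samples is not stated, so p-values here cover array-to-array spread that may be purely technical. In bulk RNA, fewer cells with a transcript and less of it per cell cannot be told apart.

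PPR proteins form a large family in land plants and are built from tandem copies of a short helical repeat, which together bind a stretch of single-stranded RNA. Nearly all are made in the cytosol and sent to plastids or mitochondria, where they take part in splicing, editing, cleavage, stabilisation and translation of organelle transcripts. Part of photosystem I is encoded in the plastid genome, and the production of these subunits depends on PPR proteins among other nuclear factors.

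Each of 3439 probes had 1 intensity per array on the linear scale that the authors deposited. Between 161 and 521 probes were at exactly 0 on an array. PSAN checked the labels, with intensities of 0.0681 to 0.243 on the psan arrays and 4.40 to 7.77 on the WT arrays. Deviations from the group means, over 2243 probes above 0 on all arrays, were compared within the numbers 1 and 2, 3 and 4, and 5 and 6 of a group. These pairs correlated at 0.401 to 0.601, except psan 1 and 2 at 0.0331. The highest value of any other pair of the same group was 0.0928, for WT 4 and 6. Among psan arrays of different pairs the highest was -0.144, for psan 2 and 5, which is below that of psan 1 and 2. The pairs may be repeat measurements, so values are also given with each pair averaged, as 3 against 3. WT arrays 1 and 2 stood apart from the other WT arrays, with median intensities of 0.0995 and 0.0970 against 0.180 to 0.195. Values without them are given for AT5G39980, AT1G79080 and AT5G40030, and for other genes where a call was lost.

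AT5G39980 was brighter on every psan array than on any WT array. Its intensity was 0.916 on psan array 1, 0.960 on psan 2, 2.996 on psan 3, 2.67 on psan 4, 1.605 on psan 5 and 1.41 on psan 6. On the WT arrays it was 0.0698 on WT 1, 0.0490 on WT 2, 0.157 on WT 3, 0.153 on WT 4, 0.112 on WT 5 and 0.0865 on WT 6. The groups did not overlap, and psan arrays 3 and 4 were the highest of all. The probe was above 0 on all 12 arrays. Mean intensity was 1.76 ± 0.878 in psan and 0.104 ± 0.0441 in WT (SD, n = 6 each), a ratio of 16.9. The dimmest psan array was 5.85 times as bright as the brightest WT array, and 7 of 3376 tested probes, this one included, had a gap that wide in this direction. All psan arrays lay above all WT arrays for 14.6% of the tested probes as deposited and for 9.06% after normalisation, a share that the choice of this gene does not allow to be read as support.

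AT1G79080 was dimmer on every psan array than on any WT array. Its intensity was 0.00389 on psan array 1, 0 on psan 2, 0.103 on psan 3, 0.113 on psan 4, 0.0280 on psan 5 and 0 on psan 6. On the WT arrays it was 0.219 on WT 1, 0.158 on WT 2, 0.194 on WT 3, 0.152 on WT 4, 0.170 on WT 5 and 0.202 on WT 6. The groups again did not overlap, although psan arrays 3 and 4 came close to the WT arrays. Mean intensity was 0.0412 ± 0.0526 in psan and 0.183 ± 0.0266 in WT (SD, n = 6 each), with the zeros counted, so the WT mean was 4.43 times the psan mean. The dimmest WT array was 1.35 times as bright as the brightest psan array, and 80 of 3376 tested probes had a gap at least that wide in this direction. All WT arrays lay above all psan arrays for 5.36% of the tested probes as deposited and for 10.4% after normalisation, which again is no support for a gene chosen on this difference.

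The 2 genes thus differed in how near the floor of the scale their low group lay. AT1G79080 was at 0 on 2 psan arrays and on 0 WT arrays, a pattern that 89 of 3376 tested probes shared (2.64%). On psan arrays 1 and 5 it was above 0 but below the 5th percentile of the values above 0 on its array, which was 0.0354 on psan 1 and 0.0308 on psan 5. On psan arrays 3 and 4 it lay above that percentile, 0.0320 and 0.0268. AT5G39980 had no such value on any array, even in WT, where it was low.

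**Figure D1:**
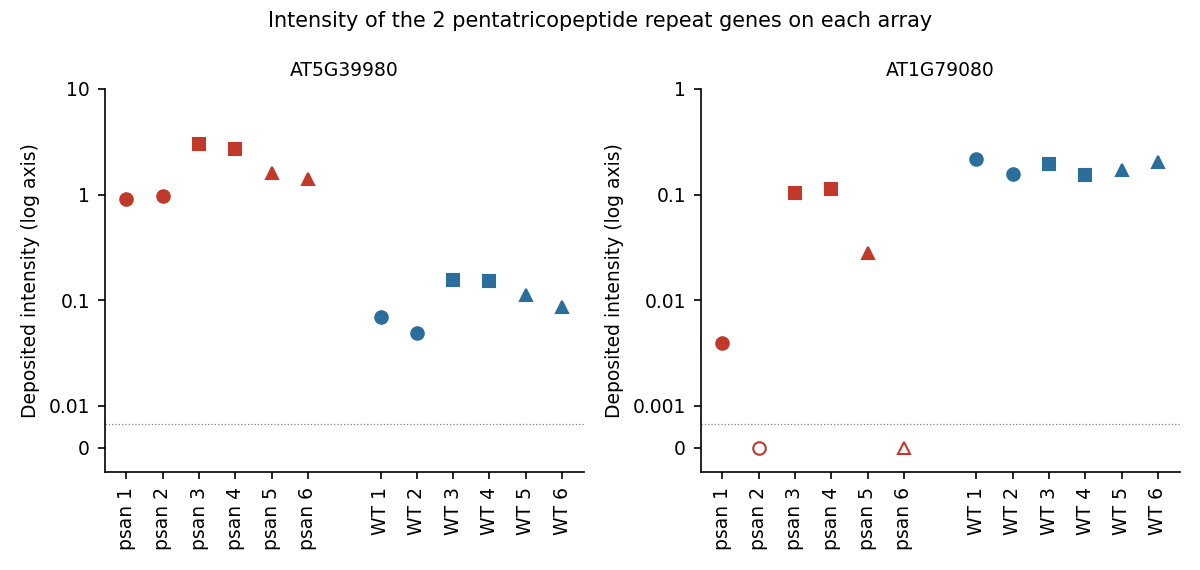
Deposited intensity (log axis, with 0 drawn as an open symbol below the dotted line) of AT5G39980 and AT1G79080 on the 6 psan arrays (red, left) and the 6 WT arrays (blue, right), with circles, squares and triangles for the number pairs 1 and 2, 3 and 4, and 5 and 6. AT5G39980 lies between 0.916 and 2.996 on the psan arrays and between 0.0490 and 0.157 on the WT arrays, and AT1G79080 is at 0 on psan arrays 2 and 6 and at most 0.113 on the others, against 0.152 to 0.219 on the WT arrays.

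On the log2 scale, after quantile normalisation and with zeros left out array by array, AT5G39980 had a mean of 0.61 ± 0.85 in psan and -2.92 ± 0.39 in WT (SD, n = 6 each). The log2 fold change, psan minus WT, was 3.53 with a standard error of 0.37 from the limma fit across all probes. Over 26 other settings it ran from 3.06, without psan arrays 3 and 4, to 4.05, on the values as deposited. AT1G79080 averaged -4.78 ± 1.61 on the 4 psan arrays above 0 and -2.12 ± 0.42 on the 6 WT arrays (SD), a log2 fold change of -2.66 with a standard error of 0.61. As the fit drops the psan arrays at 0, this value rests on 4 psan arrays. With the zeros kept and an offset of 0.0223 added to every value it was -2.47. It was -3.75 without psan arrays 3 and 4, where the 2 psan arrays left above 0 are psan 1 and 5. Without WT arrays 1 and 2 the log2 fold changes were 3.44 for AT5G39980 and -2.34 for AT1G79080. With averaged pairs they were 3.53 and -3.12, with larger standard errors of 0.54 and 0.80. For AT1G79080, psan pairs 1 and 2 and 5 and 6 then rest on 1 array each. Neither changed its sign in any of the 26 settings, which is no support, as both genes were chosen for this difference. As deposited, the median log2 fold change of all probes was 0.46, against -0.015 after normalisation. AT1G79080 stood at -2.43 on that scale.

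Both genes varied between the psan pairs, and both were highest on psan arrays 3 and 4. For AT5G39980 the mean intensity of psan pair 3 and 4 was 2.83, that of pair 5 and 6 was 1.51 and that of pair 1 and 2 was 0.938. For AT1G79080 the same pairs had 0.108, 0.0140 and 0.00195, with the zeros counted. As the last 2 of these pairs each hold 1 array at 0 and 1 under the 5th percentile, no order is given between them. Within a pair the arrays were close: the 2 arrays of each psan pair differed by 0.13 to 0.16 on the log2 scale for AT5G39980, while the pair means spanned 1.86. For AT1G79080 the psan pair means spanned 2.90, and psan 3 and 4 differed by 0.12. In the other psan pairs 1 array was at 0, which leaves no difference to give. The psan spread of AT5G39980 (SD 0.85 on the log2 scale) was larger than that of 83.0% of the probes above 0 on all arrays, whose median SD in psan was 0.49. In WT its SD of 0.39 was below the median of 0.44. AT1G79080 had an SD of 1.61 over the 4 psan arrays above 0, larger than that of 98.6% of the same probes. In WT its SD was 0.42, also below the median.

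Psan arrays 3 and 4 were the highest psan arrays for other probes as well. They were the highest of the 6 for 408 of 3376 tested probes as deposited (12.1%) and for 566 after normalisation (16.8%). They were the lowest for 788 as deposited (23.3%) and for 606 after normalisation (17.95%). The percentile rank of the 2 genes among all probes of an array correlated at 0.81 over the 6 psan arrays and at 0.035 over the 6 WT arrays. These are descriptions over few arrays that share pairs. Over all 12 arrays the correlation was -0.84, which the opposite group difference fixes. PSAN was also dim but highest on these arrays within psan, with intensities of 0.243 on psan 3 and 0.241 on psan 4, against 0.0681 to 0.216 on the other psan arrays.

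Within WT, the order of the arrays depended on the scaling. As deposited, AT5G39980 was lowest on WT arrays 1 and 2. After normalisation it was lowest on WT arrays 5 and 6, with log2 values of -3.21 and -3.48, against -2.69 and -3.06 on WT 1 and 2. AT1G79080 had almost equal WT pair means as deposited, 0.188 for WT 1 and 2, 0.173 for WT 3 and 4 and 0.186 for WT 5 and 6. After normalisation WT arrays 1 and 2 were highest, with a pair mean of -1.63 on the log2 scale, against -2.38 and -2.34 for the other pairs. WT arrays 1 and 2 are those with the lower medians given above.

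Other PPR genes that could be found on the array are given for context. Of 49 other genes in a PPR list made from RefSeq names and known family members, 5 had a single-gene probe and 3 lay only on probes for several genes, which were not used. The list does not hold the whole family, so further PPR genes may be among the measured genes. Of the 5, 3 rose in psan and 0 fell, by limma over 12 arrays with Benjamini-Hochberg adjustment over all tested probes. The background was 29.9% of all tested probes called, 14.3% called higher and 15.6% called lower, so a list of 5 is too short to set apart from it. With averaged pairs limma called 0 of the 5, 2 of which had an unadjusted p under 0.05, and 4.3% of all probes were called. With pairs taken as random blocks it also called 0, with 3 at an unadjusted p under 0.05. The median log2 fold change of the 5 was 0.77, against -0.015 over all tested probes. As deposited, limma called 4 of the 5 and their median was 1.37, against a median of 0.46 over all probes, of which 22.3% were called higher and 7.52% lower.

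CRR21 (AT5G55740), which is needed for editing of the plastid ndhD transcript of the NDH complex, rose. Its intensity lay between 0.294 and 0.526 on the psan arrays, with a median of 0.451, and between 0.0546 and 0.275 on the WT arrays, with a median of 0.0804. The groups did not overlap as deposited but did after normalisation, when WT arrays 3 and 4 lay above psan array 3. Over all tested probes, 14.6% had every psan array above every WT array as deposited and 9.06% after normalisation. The log2 fold change was 1.37 ± 0.41 (SE), with a limma adjusted p of 0.0233. It did not pass with averaged pairs (adjusted p = 0.179), with pairs taken as random blocks (0.0748), with the probe number corrected (log2 fold change 0.81, adjusted p = 0.165), without WT arrays 1 and 2 (0.0552) or without WT array 6 (0.0515).

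OTP70 (AT4G25270), a plastid protein needed for splicing of the rpoC1 intron, rose by less but with a smaller spread. Its intensity lay between 0.411 and 0.572 on the psan arrays and between 0.154 and 0.280 on the WT arrays, without overlap. The log2 fold change was 0.63 ± 0.18 (SE), with a limma adjusted p of 0.0203. It did not pass with averaged pairs (0.237) or the pair as a random block (0.105), and as deposited it was 1.15.

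AT3G22150 also rose, by 1.74 ± 0.43 (SE) on the log2 scale (limma adjusted p = 0.0137). It was 0.102 to 0.147 on the psan arrays and at 0 on WT arrays 1, 2 and 3. Of these, WT arrays 1 and 2 held the most zeros of all arrays. WT arrays 4, 5 and 6 had 0.0255, 0.0324 and 0.0744, so the groups did not overlap. The fit dropped the arrays at 0, and the WT value rests on 3 arrays. Without WT array 6 the log2 fold change was 2.49, and without WT array 4 or 5 the adjusted p was 0.0597 or 0.0595. It did not pass with averaged pairs (0.0683), with pairs taken as random blocks (0.110) or with the probe number corrected (1.23, adjusted p = 0.0767).

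OTP85 (AT2G02980), another factor for editing of ndhD, had a log2 fold change of 0.77 and an adjusted p of 0.128, and passed on the values as deposited (1.37, adjusted p = 0.0249). Its intensity was 0.0967 to 0.278 in psan and 0 to 0.126 in WT. The only zero was on WT array 1, where many probes were at 0. AT3G22690 had a log2 fold change of 0.16 with an adjusted p of 0.798, and its sign turned under some settings. Its intensity was 0.0289 to 0.180 in psan and 0.0240 to 0.0806 in WT. For 3 of these 5 genes, CRR21, OTP70 and AT3G22690, psan arrays 3 and 4 were the lowest of the psan arrays, opposite to AT5G39980 and AT1G79080. This held as deposited and after normalisation. Psan arrays 3 and 4 were also the lowest psan arrays for 23.3% of all tested probes as deposited and 17.95% after normalisation. A list of 5 genes is too short to set apart from these shares. None of the 58 genes in a list of other organelle transcription and RNA processing factors had a single-gene probe.

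**Figure D2:**
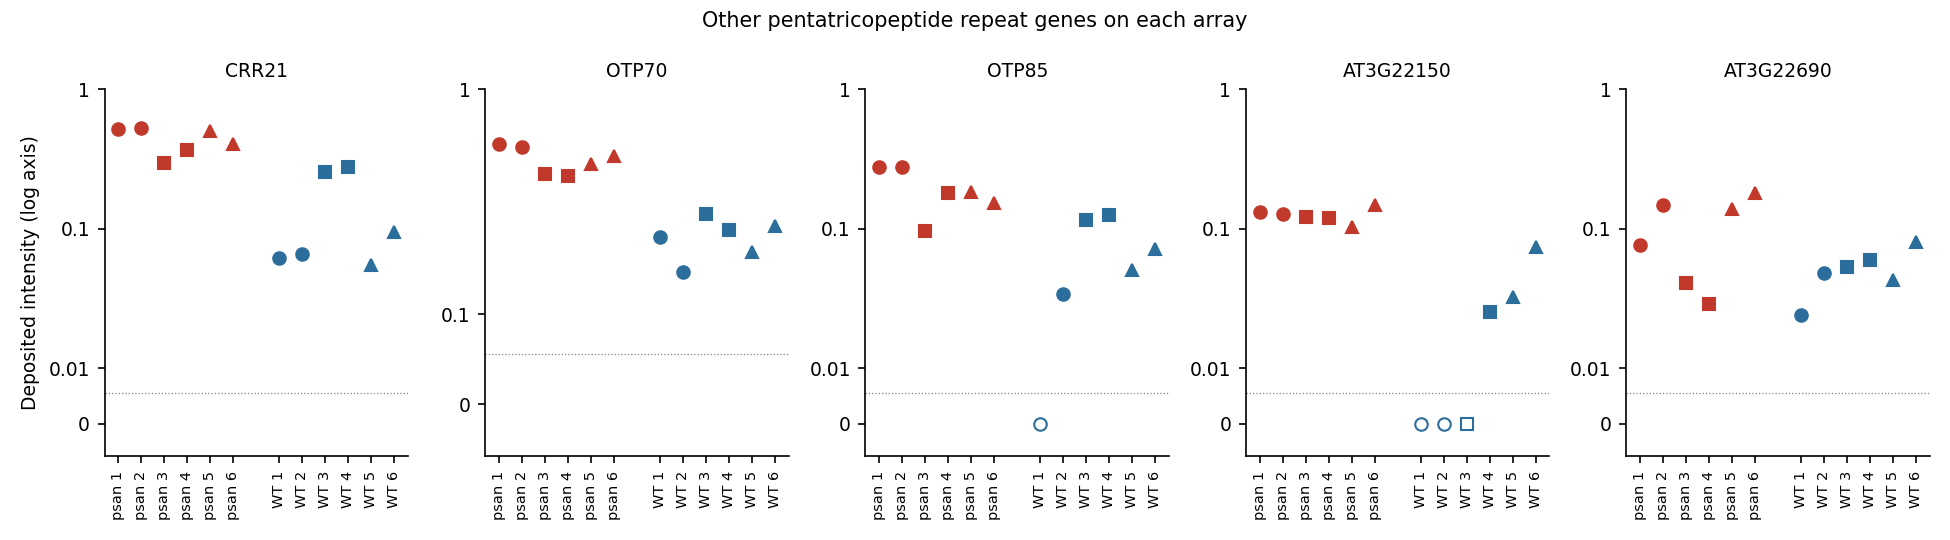
Deposited intensity (log axis, 0 as an open symbol below the dotted line) of 5 other PPR genes on the 6 psan arrays (red, left) and the 6 WT arrays (blue, right), with symbols by number pair as circles (1 and 2), squares (3 and 4) and triangles (5 and 6). As deposited, CRR21, OTP70 and AT3G22150 lie higher on all psan arrays than on any WT array, while OTP85 and AT3G22690 overlap between the groups. Such a separation held for 14.6% of all tested probes as deposited and for 9.06% after normalisation, when CRR21 overlaps as well.

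**Figure D3:**
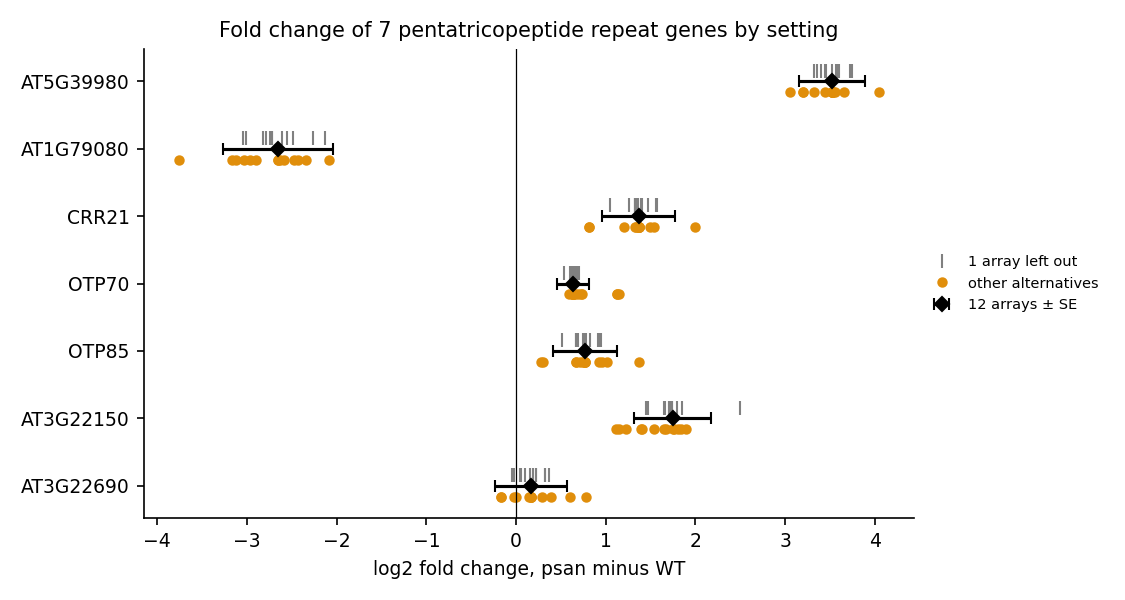
Log2 fold change (psan minus WT) of AT5G39980, AT1G79080 and 5 other PPR genes, with the fit over 12 arrays as a diamond with its standard error, fits without 1 array as grey ticks and the other settings as orange points. AT5G39980 stays between 3.06 and 4.05 and AT1G79080 between -3.75 and -2.08, and AT3G22690 lies on both sides of 0.

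The fold change of all probes also varied with the probe number, the row label of the deposited table, in a repeating period. AT5G39980 is probe 249 and AT1G79080 is probe 4376. In 24 bins of 12 numbers that make up the period, the bin that holds AT5G39980 had a median log2 fold change of 0.31 over 144 probes, with 28 called higher and 4 lower. The bin that holds AT1G79080 had a median of -0.55 over 138 probes, with 7 called higher and 44 lower. Each gene thus sat in a bin whose median had the sign of its own difference. After these positional medians, by row and by column of the period, were subtracted on each array, AT5G39980 had a log2 fold change of 3.19 and AT1G79080 of -2.08. With averaged pairs as well, they had 3.19 and -2.64.

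Fold changes of probes near the 2 genes by number are given as a description, since genes chosen for a wide difference will tend to exceed such values. Probe 248, just before AT5G39980, had 0.85, and probe 250, just after it, had -0.19. Probe 4375, just before AT1G79080, had -0.66, and probe 4377, just after it, had -1.31. At the same place in the other periods, 9 probes ran from -1.004 to 1.78 around a median of 0.25 for AT5G39980, and 14 probes ran from -1.30 to 2.16 around a median of -0.35 for AT1G79080. Within 12 numbers on either side, 19 probes ran from -0.97 to 6.72 around a median of 0.51 for AT5G39980, and 16 probes ran from -2.53 to 1.20 around a median of -0.71 for AT1G79080.

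**Figure D4:**
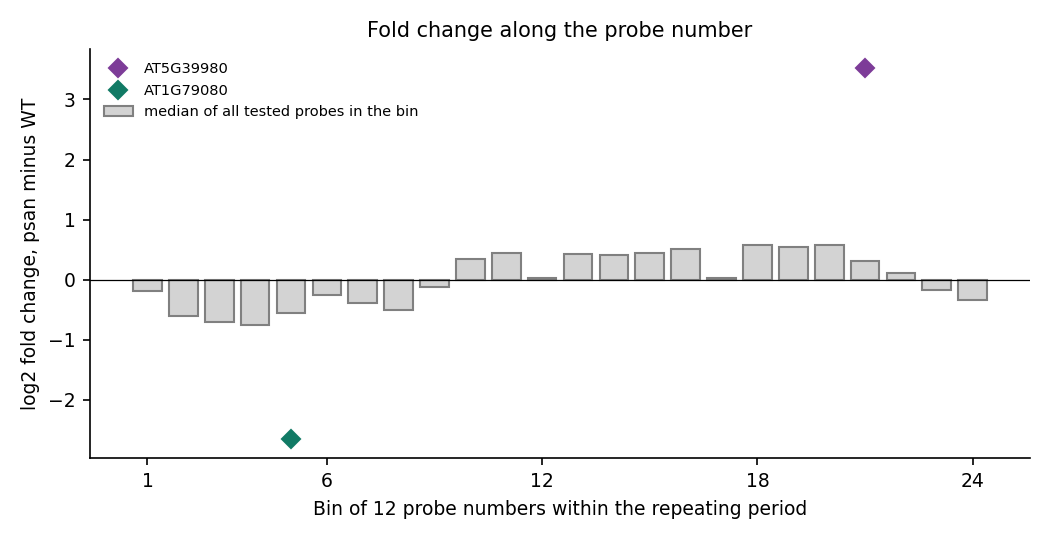
Median log2 fold change (psan minus WT) of all tested probes in 24 bins of 12 probe numbers (grey bars), with AT5G39980 and AT1G79080 as diamonds in their bins. The bars run from -0.75 to 0.58, and the diamonds lie at 3.53 and -2.66.

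On the chromosome, 3 of the 20 annotated genes nearest to AT5G39980 in the TAIR10.1 gene order had a single-gene probe, and none of the 20 nearest to AT1G79080 had one. Of the 3, AT5G40030, which lies 6 genes after AT5G39980, rose. Its intensity lay between 0.0836 and 0.394 on the psan arrays and between 0.00368 and 0.0304 on the WT arrays. The groups did not overlap as deposited, which held in this direction for 14.6% of all tested probes. They did overlap after normalisation, when WT array 2 lay above psan arrays 3 and 6. The log2 fold change was 3.72 ± 1.07 (SE), with a limma adjusted p of 0.0199. It did not pass with averaged pairs (0.167), with the probe number corrected (0.0532) or without psan arrays 3 and 4 (0.0502). Its size rests on values near the floor, as WT arrays 5 and 6 had intensities of 0.00785 and 0.00368 and both stood at -9.83 on the normalised log2 scale. With the zeros kept and an offset added to every value the log2 fold change was 1.94, and without WT arrays 1 and 2 it was 4.94. Unlike AT5G39980 it was brightest on psan arrays 1 and 2, with 0.394 and 0.366. AT5G40050 and AT5G40070, which lie 8 and 10 genes after AT5G39980, had log2 fold changes of -0.72 and 0.79 and did not pass (adjusted p = 0.187 and 0.160).

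The genes most like each PPR gene were found by the Pearson correlation of percentile ranks within the array over the 12 arrays, among 688 other single-gene probes. Since both genes were chosen for their group difference, such a search returns genes with the same difference, and the correlations carry no test. For AT5G39980 they were AT1G27610 (r = 0.97), AT3G23940 (0.96), APTX, which encodes a protein like the DNA repair factor aprataxin (0.96), and PRA1.B6, a prenylated Rab acceptor of membrane traffic (0.96). In all, 15 genes were above 0.9. Of deviations from the group means alone, r was 0.25 to 0.57 for these 4 genes. For AT1G79080 they were PSAN itself (0.93), AT3G21810 (0.93), AT1G65090 (0.91) and the histone gene AT1G09200 (0.91), and 5 genes were above 0.9. Here r of the deviations was 0.49 to 0.58, and PSAN had 0.57. The arrays share pairs, so these values rest on fewer independent points than 12.

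**Figure D5:**
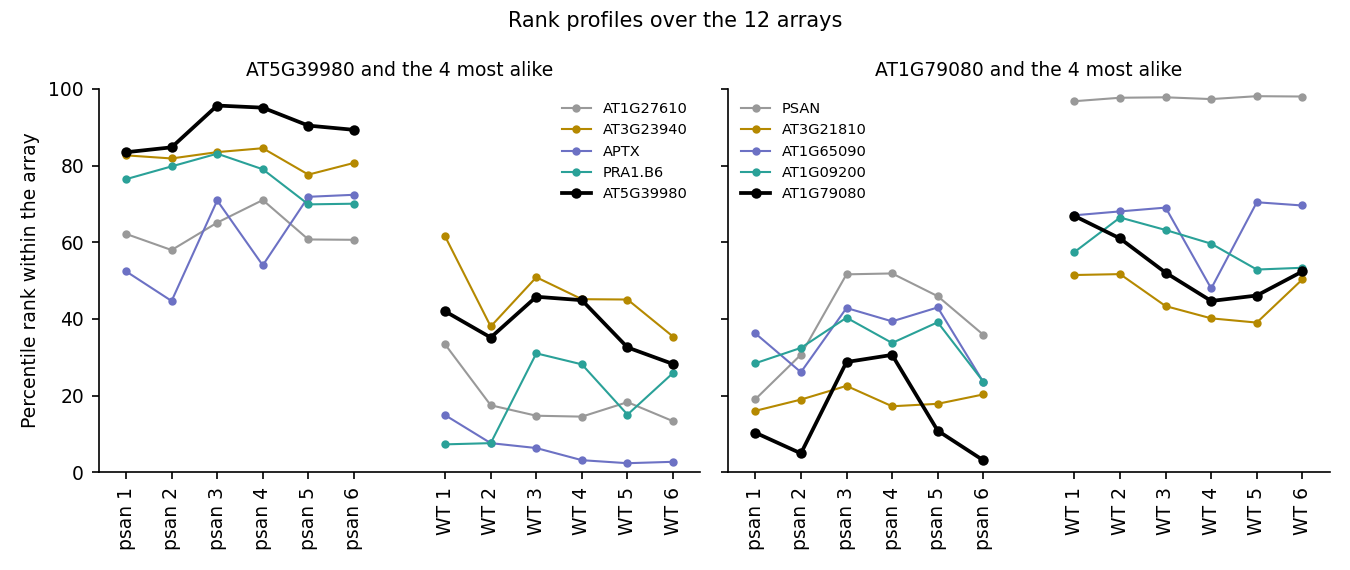
Percentile rank among all probes of the array for AT5G39980 (left panel, black) and AT1G79080 (right panel, black) with the 4 most alike single-gene probes of each, on the 6 psan arrays (left) and the 6 WT arrays (right). AT5G39980 ranks at 83.5 to 95.7 on the psan arrays and 28.2 to 45.8 on the WT arrays, and AT1G79080 ranks at 3.10 to 30.6 on the psan arrays and 44.7 to 66.9 on the WT arrays.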

How the data were processed

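Groups and sample numbers come from the sample titles. The deposited values are intensities on a linear scale, from 0 to about 100 on each array. The array type, the scaling by the authors and any background correction were not given in the sources used here. Precision is limited by the number of arrays. The platform annotation gave 1 gene symbol for 692 of 3439 probes, several for 870 and none here for 1877. Single-gene probes were matched through gene IDs to RefSeq's TAIR10.1 table, and 690 matched, for 689 loci. For a locus with several probes the brightest stood.

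Intensities were quantile normalised, each zero was then set to missing, and the log2 scale was fitted with limma 3.58.1 in R 4.3.3 (lmFit, eBayes, two-sided, psan minus WT). P-values were adjusted by Benjamini-Hochberg over 3376 probes above 0 on at least 1 array of each group, with a threshold of 0.05. The fit was tested on simulated data with independent arrays and no zeros. These simulated data leave out the number pairs, the zeros and the variation with probe number, so they cannot show how the fit handles them. Figures were drawn with matplotlib 3.10.9. The genes and lists were chosen with earlier results of these data known, and so were the alternatives. Named genes were the 2 PPR genes, PSAN, the PPR list, measured genes among the 10 on either side of each PPR gene, and the 4 genes most like each. The numbers 1 to 6 were not taken to pair psan with WT, as same-numbered arrays correlated at -0.155 to 0.228.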

Additional observations from a re-analysis of the deposited data

Results flagged for a closer look

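Each gene named here was checked for 1 array lying far from the rest of its group in each group with at least 4 arrays above 0, which left out APTX and AT3G22150 in WT. This made 34 checks and gave 1 such array, where about 1.7 would come by chance with independent arrays. As the arrays share pairs, that number is only a rough guide. AT1G65090, one of the genes most like AT1G79080, had a normalised log2 value of -2.40 on WT array 4, against -1.47 to -1.26 on the other 5 WT arrays, a gap of 0.823 of the range. Neither AT5G39980 nor AT1G79080 had such an array in psan, where AT1G79080 was checked over the 4 arrays above 0, or in WT.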

How the results depend on the processing

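The log2 fold changes of AT5G39980 and AT1G79080 kept their sign in all 26 other settings, between 3.06 and 4.05 and between -3.75 and -2.08, or 3.33 to 3.75 and -3.05 to -2.13 with 1 array left out. Both genes were chosen for this difference and their groups did not overlap, so a kept sign is no support for it. AT1G79080 was at 0 on 2 psan arrays, and 4 psan arrays counted as absent when values under the 5th percentile were added. PSAN stayed past the threshold in all 26. Over all probes, 1010 were called, 891 to 980 with 1 array left out, 586 at an adjusted p under 0.01, 553 with the pair as a random block, 145 with averaged pairs and 16 with pairs averaged after the probe number correction. Of the other PPR genes limma called 3, 4 on the values as deposited, 2 to 3 with 1 array left out, 1 with the replicate block and 1 with the probe number corrected. Without WT arrays 1 and 2 it called 2. With the dimmest 25% of probes left out it also called 2, and AT3G22150 and AT3G22690 were too dim to be tested there. It called 0 with averaged pairs, with the pair as a random block, with both averaged pairs and that correction, and at an adjusted p under 0.01; at an unadjusted p under 0.05 the first 3 of these gave 2, 3 and 2. The AT3G22690 log2 fold change turned sign with cyclic loess (-0.0023), zeros left out before normalisation (-0.021), the probe number corrected (-0.17, also with averaged pairs), without psan array 6 (-0.042) and without WT array 5 (-0.026), within a range of -0.042 to 0.36 with 1 array left out, and the cause was not tested. The sample number as a block left AT3G22150 at an adjusted p of 0.0574 and CRR21 at 0.0551. Of 12 arrays, 4 matched their own number best in the other group. For the other 15 named genes, 347 values kept their call and direction, 31 lost the call, 1 gained it and 6 changed sign. Settings with psan arrays 3 and 4 left out, or with pairs averaged after the correction, were added after the data were seen. The organelle RNA factor list could not be run, as none of its genes had a single-gene probe. Values near the floor, as those of AT1G79080 in psan, have no firm size.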
